A study of Oryza sativa with 3 samples.

Results

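The metallothionein genes MT-1, MT-2 and MT1B were followed in rice leaves, 3 of the 17905 genes that a probe set of the array was listed with alone. Members were found by gene name, but the genes were chosen from earlier values of these same arrays, in which MT1B differed between the transgenic lines, so all their values are given as a description, without a test. Together they had 6 probe sets, of which 5 were above the signal floor used here. The 3 arrays compared were 1 of untransformed Guichao2, an indica rice cultivar that served as the control, and 1 each of the lines B10201 and B10301, which carry an OsEBS transgene in the Guichao2 background. Each RNA sample came from leaves of 10 untreated plants aged 6 weeks, raised in a greenhouse at 28 °C on days of 14 h light and 10 h darkness. The labels do not give the promoter of the transgene or how the lines were made, and expression of the transgene was not analysed here. No further planting of any line is described, so spreads and p-values measure only the difference between single pooled samples, which may be technical, and one control array underlies both ratios.

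Metallothioneins are small proteins rich in cysteine, whose thiol groups bind copper, zinc and cadmium and can react with oxygen radicals. Plant metallothioneins are grouped into types by the arrangement of their cysteines. In rice, OsMT1a, here listed as MT-1, has been linked to zinc accumulation and drought tolerance, and OsMT2b to the removal of reactive oxygen. Transcripts of type 1 and type 2 metallothioneins are abundant in many plant tissues, leaves included.

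Signals are on the log2 scale of the deposited MAS5 values, and a ratio is the log2 signal of a line minus that of the control. A floor was set at 5.50 on this scale, the median over all probe sets and arrays, and lower values were raised to it before a ratio was taken, so a ratio against a value at the floor is a bound. The median ratio over the 26475 probe sets above the floor was -0.015 in B10201 and -0.010 in B10301. Among these probe sets, 34.5% of the 2122 genes with several had ratios of both signs in B10201. Their ratios spanned a median range of 0.36 per gene in either line, which is the scale on which probe sets of one gene disagreed.

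MT-1 (LOC4351213), a type 1 metallothionein, had a lower signal in both transgenic lines than in the control. Its 1 probe set, which carries no suffix for cross-hybridisation, read 15.21 on the control array, 13.85 for B10201 and 13.82 for B10301. The control array stood apart, and the lines lay next to each other. In the control the signal was close to the highest value on that array, 16.08. The log2 ratio was -1.36 in B10201, or 2.56-fold lower, and -1.39 in B10301, or 2.62-fold lower. The mean over the lines was -1.37 ± 0.023 (SD, n = 2 lines), and the lines differed by -0.033. The median absolute difference between the lines was 0.21 over all probe sets above the floor. Most of these were dimmer than MT-1, so that median is not matched to its signal. Of all probe sets above the floor, 2.93% were at least 2-fold lower in both lines and 2.34% at least 2-fold higher. Among the 1114 with a mean log2 signal of at least 13, the share at least 2-fold lower in both lines was 0.718%, or 8 probe sets, MT-1 among them.

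MT1B (LOC4332487), a gene named as a second type 1 metallothionein, differed between the lines. Its 1 probe set, also without a suffix, read 7.84 on the control array, 5.70 for B10201 and 8.08 for B10301. Here B10201 stood apart, while B10301 and the control lay close together. On the linear scale the signals were 228, 51.8 and 271. The log2 ratio over the control was -2.14 in B10201, or 4.41-fold lower, and 0.25 in B10301, or 1.19-fold higher. B10301 exceeded B10201 by 2.39 on the log2 scale, or 5.23-fold. Over all probe sets above the floor, the 95th percentile of the absolute difference between the lines was 1.06. That percentile covers all signal levels and is not matched to the low signal of MT1B, which was chosen with its difference known. A mean over the lines, -0.95 ± 1.69 (SD, n = 2 lines), describes neither line.

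The B10201 signal of MT1B was just above the floor, at which a signal amounts to 45.4 on the linear scale. Over all probe sets above the floor, 5.45% were at least 2-fold lower than the control in B10201, 9.95% differed at least 2-fold in either direction in B10301 and 2.31% were at least 2-fold higher in B10301 than in B10201. Low signals differed more often: of the 7539 probe sets with a mean log2 signal of 6 to 8, where MT1B lies, 9.47% were at least 2-fold lower in B10201 and 5.13% at least 2-fold higher in B10301 than in B10201. The synonym OsMT1b belongs in the gene table to another gene, LOC4352580, and its values are given below under MT4A.

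**Figure D1:**
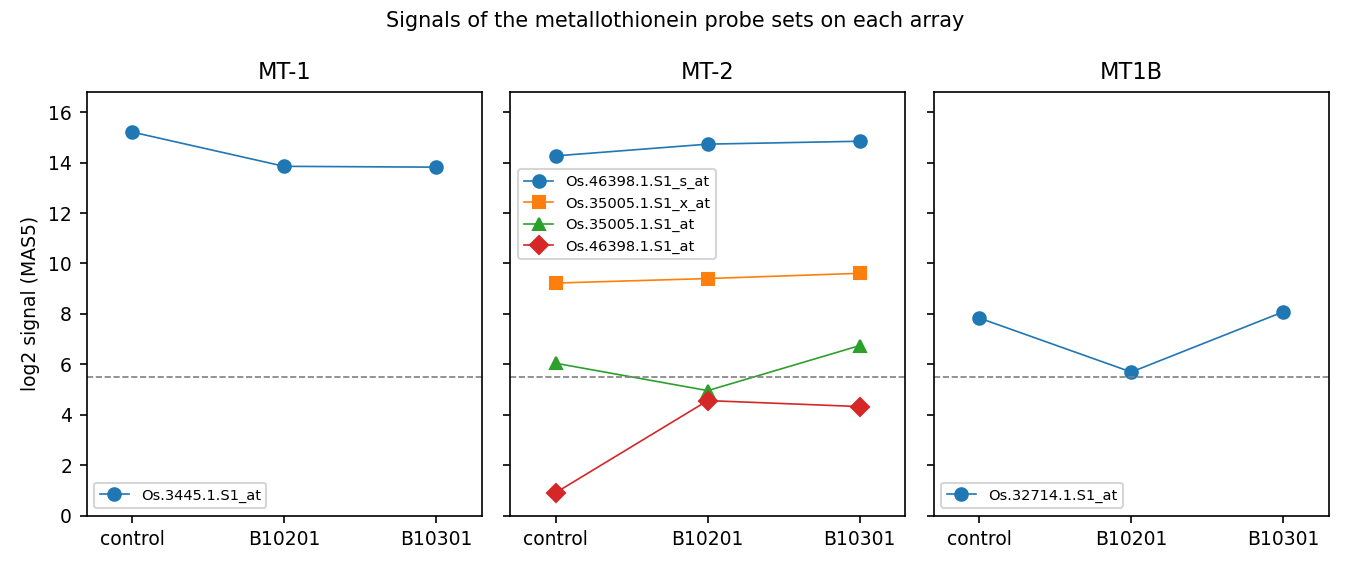
Log2 MAS5 signal (y axis) of each probe set of MT-1, MT-2 and MT1B on the control, B10201 and B10301 arrays (x axis); each marker is 1 array, thin lines join the values of a probe set and the dashed line is the floor of 5.50. MT-1 is at 15.21 in the control and at 13.85 and 13.82 in the lines, MT1B is low in B10201 alone at 5.70, and the MT-2 probe sets above the floor are highest in B10301, with 1 of them lowest in B10201.

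MT-2 (LOC4325218), a type 2 metallothionein, was slightly higher in both lines by its brighter probe sets, and a dimmer one was higher in B10301 only. The brightest, an s_at set, read 14.27 on the control array, 14.73 for B10201 and 14.85 for B10301. Its log2 ratios of 0.46 and 0.58, with a mean of 0.52 ± 0.081 (SD, n = 2 lines), correspond to 1.38-fold and 1.49-fold higher signals. The suffix s_at marks a set whose probes may match several transcripts, and x_at one with probes that may cross-hybridise. The x_at set read 9.22, 9.40 and 9.61 on the same arrays, with ratios of 0.18 and 0.39.

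The MT-2 probe sets without such a suffix had low signals. The set that shares its design with the x_at set read 6.04 on the control array, 4.96 for B10201 and 6.74 for B10301, so B10201 was below the floor and the other arrays above it. Against the floor, B10201 was at least 1.45-fold lower than the control and at least 2.36-fold lower than B10301, and B10301 was 1.62-fold higher than the control. This order of the arrays, B10201 lowest and B10301 highest, is also that of MT1B. The partner of the s_at set read 0.91, 4.56 and 4.33, below the floor on all 3 arrays, and has no ratio here. The mean of the 3 probe sets above the floor was at most 0.035 in B10201, or -0.15 with no value raised to the floor, and 0.56 in B10301. Raised to the floor, they spanned -0.54 to 0.46, wider than the median range of 0.36 within a gene, in B10201, and 0.39 to 0.70 in B10301, where all 3 were above the control. The higher MT-2 values in B10201 therefore rested on probe sets that may also bind other transcripts, and their part in it was not tested.

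A further 6 genes of the gene table carry a metallothionein name, and 4 of them had a probe set of their own above the floor: MT2B, MT2C, MT4A and MT4C. MT21A had no probe set listed here, and MT4B was listed only with other genes. By the brightest probe set of each, 3 of the 4 were lower in both lines and 1 was higher in both, while 39.9% of all probe sets above the floor were lower in both and 36.7% higher in both. Names in the gene table cross over for this family: LOC4337596, called MT2C here, carries the synonym OsMT2b, and LOC4326409, called MT2B, the synonym OsMT2c.

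MT2C, known as OsMT2b for its role against reactive oxygen, was lower in both lines by all 5 of its probe sets. None of the 5 is without a suffix: the brightest and another are a_at sets, and only the rest are x_at sets, whose probes may cross-hybridise. The less bright a_at set had ratios of -0.92 and -0.70. The part of other transcripts in the values of MT2C was not tested. The brightest read 12.44 on the control array, 11.47 for B10201 and 11.97 for B10301, with ratios of -0.98 and -0.47. Over the 5 probe sets the ratios ran from -0.98 to -0.70 in B10201 and from -0.70 to -0.34 in B10301, with means of -0.85 and -0.50. B10201 was the lowest array in each of them. Probe sets of one gene are read on the same arrays and can share probes or target sequence, so they are no replicates of the plants. None of the 5 reached 2-fold in either line. Of all probe sets above the floor, 5.45% were at least 2-fold lower in B10201 and 9.95% differed at least 2-fold in B10301. With arrays centred on their medians, the brightest set of MT2C was at -1.13 in B10201. Of the settings tried, only centring and quantile normalization could change the ratios of this brightest set, and they stayed below 0 in both lines. Those of MT4A and MT4C were also below 0 in both lines with centring and quantile normalization.

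MT2B had 3 bright probe sets near the control level, each with the suffix a_at or x_at, and a dim one without a suffix below it. The brightest read 14.90, 15.01 and 15.14 in the control, B10201 and B10301, with ratios of 0.11 and 0.24. The other bright sets had ratios of 0.010 and -0.17 in B10201 and of 0.18 and 0.30 in B10301. The dim set read 7.54, 6.50 and 6.95, with ratios of -1.04 and -0.59, and was the 1 probe set among the 11 of these genes to reach 2-fold in a line. Of all probe sets above the floor, 5.45% were at least 2-fold lower in B10201. The share was 9.47% at a mean log2 signal of 6 to 8, where this set lies, so 1 of 11 is near these shares. Centring the arrays on their medians turned the B10201 ratio of the brightest set to -0.045, and quantile normalization brought it to 0.

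MT4A (LOC4352580) read 11.97 on the control array, 11.62 for B10201 and 11.86 for B10301, with ratios of -0.35 and -0.11. Its row lies in a stretch of the table in which B10301 values stood 1 place off, and the value as deposited, 10.94, would give a ratio of -1.02. A second set that is listed with MT4A and another gene had ratios of -0.25 and -0.13. MT4C (LOC4352582) read 7.41, 7.28 and 7.04, with ratios of -0.13 and -0.37. No row of MT-1, MT-2 or MT1B lies in such a stretch, so their values are the same with and without the correction.

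**Figure D2:**
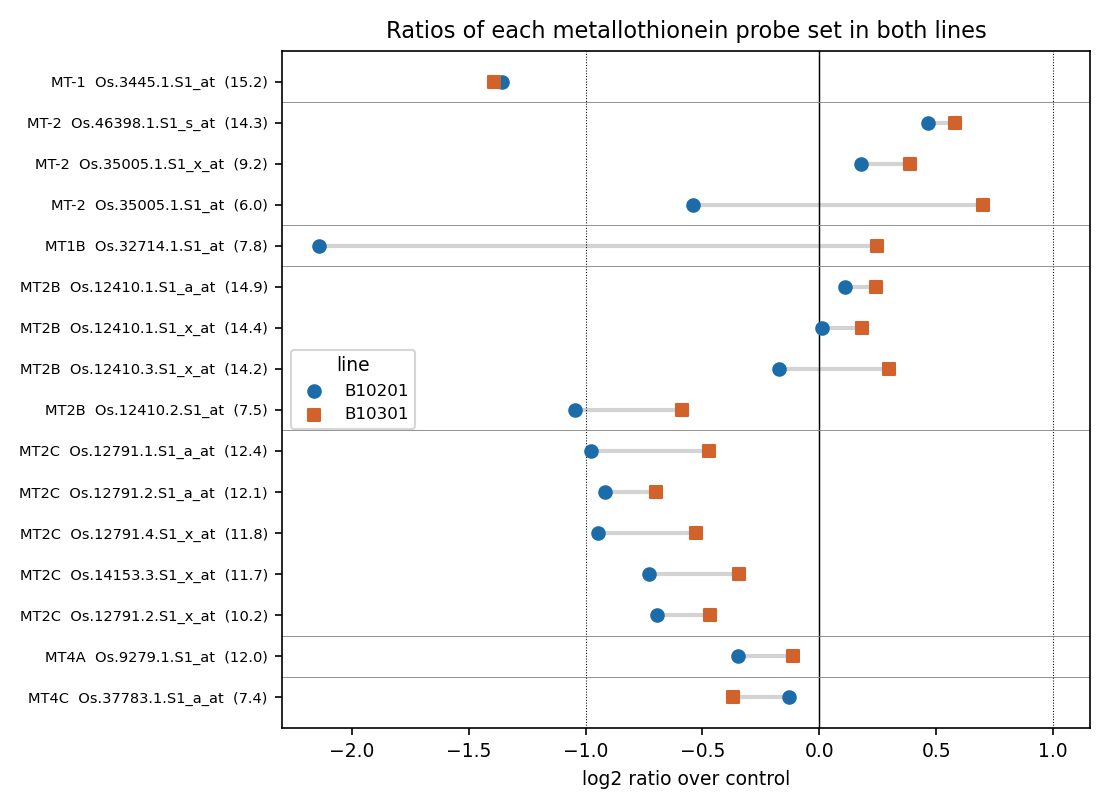
Log2 ratio over the control (x axis) of each probe set above the floor that was listed with 1 metallothionein gene, with circles for B10201 and squares for B10301; the control's log2 signal is in brackets and dotted lines mark 2-fold. MT-1 lies beyond -1 in both lines, MT1B in B10201 only at -2.14, and all 5 probe sets of MT2C lie between -0.98 and -0.34.

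Across the 7 measured genes, ratios therefore ranged from -2.14 to 0.46 in B10201 and from -1.39 to 0.58 in B10301 by the brightest probe sets. Whether the genes differ from each other was not tested, and signals of different probe sets were not set against each other. A lower signal in leaf RNA cannot tell fewer cells of a type from less RNA per cell.

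**Figure D3:**
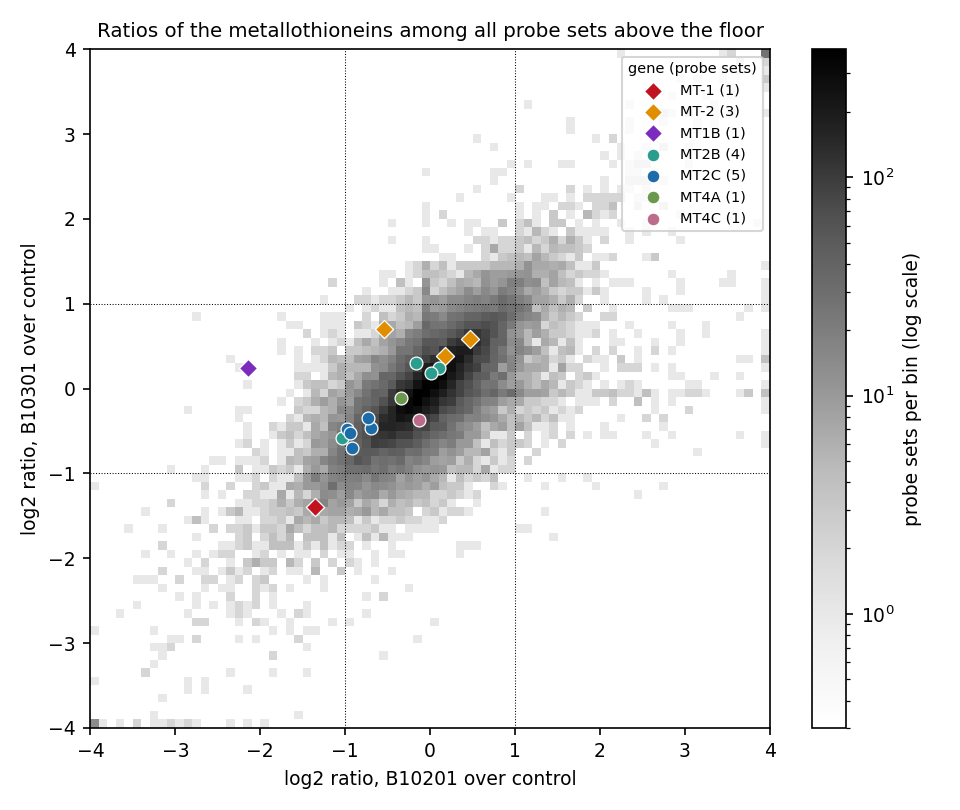
Log2 ratio over the control in B10201 (x axis) and B10301 (y axis). Grey bins count all 26475 probe sets above the floor, with ratios beyond the axes drawn at the edge, coloured marks are metallothionein probe sets and dotted lines mark 2-fold. MT-1 lies on the diagonal at -1.36 and -1.39, and MT1B at -2.14 and 0.25 lies away from it.

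The genes with the pattern most like MT-1 were sought among 1997 other genes with a readable symbol, by the distance between their 2 ratios and those of MT-1, a measure that rests on 3 arrays. The nearest was AldC-1, an aldolase of sugar metabolism, at a distance of 0.035 with ratios of -1.39 and -1.41. Next came NAAT1, the nicotianamine aminotransferase of phytosiderophore synthesis, at 0.078, with 12.79 on the control array, 11.50 for B10201 and 11.35 for B10301. OsSCR1, a GRAS family transcription factor, followed at 0.13, CPS2, a copalyl diphosphate synthase, at 0.14 and DJC27, a J-domain protein, at 0.16. All 5 share the control array with MT-1, and their closeness says nothing about shared control.

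No gene with a readable symbol came as close to MT1B. The nearest, the potassium transporter HAK12, was at a distance of 0.79 with ratios of -1.44 and -0.14. CAB2R, a light-harvesting chlorophyll-binding protein, was at 0.83 with 15.57 on the control array, 14.10 for B10201 and 15.33 for B10301. The expansin-like EXLA3 at 0.88, the cytokinin oxidase CKX11 at 0.92 and the cellulose synthase-like CSLE1 at 0.98 followed. CKX11 matched the B10201 ratio with -2.10 but was also lower in B10301, at -0.67. EXLA3 was lower in both lines too, with -1.62 and -0.46. CSLE1, with -1.16 and 0.24, was lower in B10201 and higher in B10301, as MT1B was, but was less low in B10201.

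The measured genes next to each member on its chromosome, 2 on either side in the order of the gene table, were also read. Over these 12 neighbours the ratios ran from -1.33 to 0.65. None passed 2-fold in both lines, against 2.34% higher and 2.93% lower of all probe sets above the floor. With 12 genes, a count of 0 is near these shares and says nothing about the regions. The gene before MT1B, OsPDIL5-1, had ratios of -0.27 and -0.24 and the one after it, LOC4332488, of -0.37 and -0.064. Beside MT-1, OBGM had ratios of -0.087 and 0.20 and LOC4351214 of 0.12 and 0.099, while LOC4351208, 2 places before MT-1, was lower in both lines as MT-1 was, with -0.96 and -0.82. LOC4325216, 2 places before MT-2, had ratios of -0.84 and -1.33.

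Other genes of metal handling were taken from lists of gene symbols, and for these limma was used as the test, with the lines against the control. With Benjamini-Hochberg adjustment over 26475 probe sets it called 0 (0%), with a lowest adjusted p of 0.0868, while 4520 (17.1%) had an unadjusted p under 0.05. So no gene named in the next paragraphs passed, and higher and lower describe measured values. The lowest adjusted p on any of these lists was 0.20.

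Transporters of copper, zinc, cadmium and related metals were mostly lower. Of 41 genes on the array 27 were above the floor, with median ratios of -0.38 in B10201 and -0.36 in B10301, 20 lower in both lines and 4 higher in both, against 39.9% and 36.7% of all probe sets above the floor. Just 1 was at least 2-fold lower in both, against 2.93% of all, and that was OsZIP1 (LOC4326394), of the ZIP family that brings zinc and other divalent metals into cells, with ratios of -1.53 and -1.20. OsZIP5 (-1.38 and -0.75), OsZIP2 (-0.90 and -1.16) and OsYSL13 (-1.01 and -0.83), of a family that carries metal-nicotianamine complexes, came next. Among the 4 higher in both lines was NRAMP6, of the NRAMP family of metal transporters (0.66 and 0.69).

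Of the 5 genes of metal chelation and delivery on the array, 3 were above the floor: NAAT1, at least 2-fold lower in both lines with a mean of -1.37 ± 0.10 (SD, n = 2 lines), the nicotianamine synthase NAS3 with ratios of -0.66 and -0.15, and CCS, the copper chaperone of superoxide dismutase, with -0.080 and 0.77. Regulators of metal supply had 3 measured members. BHLH063, which carries the synonyms IRO3 and OsIRO2 of iron-response factors, had ratios of -0.44 and -0.97, IDEF1, a factor of the iron-deficiency response, 0.57 and 0.24, and SPL9, a symbol of the SPL family, -0.15 and -0.19.

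Reactive oxygen enzymes and their regulators had 24 of 25 genes on the array above the floor, but the symbols also took in AC1, AC2, AC3 and AC7, which are actin symbols. With these the medians were -0.051 and 0.087, with 7 lower and 9 higher in both lines. Without the 4 actins, a choice made after seeing the data, 4 of 20 were lower and 8 higher in both lines, with medians of -0.031 and 0.15, against 39.9% and 36.7% of all probe sets above the floor. Of the 20, 0 were at least 2-fold higher or lower in both lines, against 2.34% and 2.93% of all probe sets above the floor. Centring the arrays turned the 4 lower and 8 higher to 10 lower and 7 higher, with medians of -0.19 and 0.017. sodCp, a chloroplast copper and zinc superoxide dismutase, read 13.02 on the control array, 13.86 for B10201 and 14.46 for B10301, with ratios of 0.84 and 1.44. OsRac6, a small GTPase, had ratios of 0.80 and 1.41, and OsRac1, a small GTPase that acts on the oxidase producing superoxide in rice, 0.66 and 0.80. For APX5, an ascorbate peroxidase, the control was below the floor, so the ratios of 1.53 and 0.40 are bounds. The list of copper and zinc proteins had 3 measured genes and did not take in sodCp, which was higher in both lines. Plastocyanin PETE (-0.053 and 0.20), SODCC.2 (-0.28 and 0.35) and cuznsod1 (-0.35 and 0.19) were each lower in B10201 and higher in B10301 than in the control. So 0 were lower in both lines and 0 higher in both, against 39.9% and 36.7% of all probe sets above the floor. These ratios were smaller than the median range of 0.36 within a gene, and 3 genes are too few to show a pattern of the list. SODCC.2 and cuznsod1 are also counted among the reactive oxygen enzymes. With quantile normalization 1 of the 3 was lower in both lines.

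MAS5 scales each array to a common mean, and the median log2 signals were 5.41 for the control, 5.56 for B10201 and 5.54 for B10301. The share of values above the floor was 48.7% for the control, 50.8% for B10201 and 50.5% for B10301. The leaf genes OsrbcS, OsrcaA1 and CAB2R, of carbon fixation and light harvesting, had log2 signals of at least 14.10 on every array. CAB2R was lower in B10201, as MT1B was, with ratios of -1.46 and -0.24, while OsrcaA1 (0.17 and 0.53) and OsrbcS (0.25 and 0.33) were higher in both lines. The part of leaf cell makeup in the MT1B difference was not tested. For phloem, where metallothioneins are also expressed, 4 of 5 genes on the array were measured. Their summed signal was 14.79 on the log2 scale for the control array, 14.80 for B10201 and 14.89 for B10301, and none was listed at 0. This sum is mostly OsTrxh1, with ratios of 0.051 and 0.17. Of the others ERG1, which carries the synonym RPP17, was lower in both lines as MT-1 was, with -0.68 and -0.95, as was OsSUT1 (-0.40 and -0.11), and ERG3 went opposite ways (0.87 and -0.44). The list medians were -0.17 and -0.28, and the part of phloem in the MT-1 values was not tested. Of genes marking other organs, 4 of 11 seed storage symbols, 3 of 4 root symbols and 5 of 13 floral MADS-box symbols were above the floor. Their summed log2 signals lay between 10.96 and 11.14 for seed, 12.45 and 12.80 for root, and 11.23 and 11.64 for flower, over the 3 arrays. The sums of the root and flower symbols were highest in the control, as was MT-1, but not every gene in them was lower in the lines. The flower sum is mostly FDRMADS7 (-0.77 and -0.69) and AP3 (-0.084 and -0.17). FDRMADS7 was taken in through the synonym MADS2, which the gene MADS (LOC4325001) also carries. Of the 5 flower genes, 3 were lower in both lines and 0 higher in both, against 39.9% and 36.7% of all probe sets above the floor. With 5 genes, these counts say nothing about flower genes as a set. MADS4 was among the lower ones, with ratios of -1.23 and -0.16. Its B10201 signal of 4.70 was below the floor, so the B10201 ratio is a bound. AGL10 (0.53 and -0.99) and MADS (-0.72 and 0.046) went opposite ways. The root sum is mostly OsSUS2 (-0.51 and -0.48), taken in only through the synonym RSS1, which is also the symbol of LOC4329928 (-0.14 and -0.069). Lsi1, a silicon transporter of roots, was higher in both lines (0.44 and 0.41), so the root sum does not follow this root gene. The part of root and flower genes in the MT-1 difference was not tested.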

How the data were processed

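Biotin-labelled cRNA from 3 leaf samples, made with a 3' IVT kit per the labels' protocols, was measured on Affymetrix rice arrays. The authors deposited log2 signals, and the submitters' processing notes name MAS5; its version, scaling target and detection calls are not given in the sources used here. In the 2 stretches of the table named by the rule for the members, 7705 probe sets in all, each B10301 value was taken from 1 row above, which raised its correlation across probe sets with the mean of the other arrays from 0.397 to 0.939 and from 0.051 to 0.823. No further normalization was applied. The floor was the 50th percentile of all signals, and 26475 of 57194 probe sets (46.3%) had a mean above it. The number of arrays limits the precision.

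The platform annotation listed 22436 probe sets with 1 gene, 95 with several and 34663 with none. All 17905 genes were found in the gene table of assembly ASM3414082v1, used for names and gene order. A gene was represented by its brightest probe set. The lines were compared with the control in limma 3.58.1 (R 4.3.3) over all arrays, with a trend of the variance on signal and 1 residual degree of freedom; p-values were two-sided, adjusted by Benjamini-Hochberg and called under 0.05. The script was tested on simulated data. Other steps used Python 3.11.15, numpy 2.4.6, pandas 2.3.3 and matplotlib 3.10.9. The rule for named genes took all members, other genes with a metallothionein name, the 5 genes nearest to a member at least 2-fold changed in a line or between lines, and up to 4 genes per list by size of the mean ratio. Members and lists were chosen with earlier results of these data known. Alternatives were the placement of values, centring, quantile normalization, other floors, other probe set rules, other moderation and leaving out a line.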

Additional observations from a re-analysis of the deposited data

How the results depend on the processing

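Centring the arrays on their medians moved the median ratio of all probe sets to -0.17 in B10201 and -0.15 in B10301. It gave mean ratios over the lines of -1.52 for MT-1 and 0.38 for MT-2, and quantile normalization gave -1.53 and 0.35. For MT-2 the mean of its probe sets was at most 0.30, with a difference between the lines of at least 0.52, and without x_at and s_at probe sets these were at most 0.081 and at least 1.24, bounds because B10201 was at the floor in 1 set. With values not raised to the floor, a setting chosen after seeing the data, they were 0.20 and 0.70 over all sets, and -0.19 and 1.78 without x_at and s_at sets, so the sign of the MT-2 mean depends on the probe set. Leaving out a line gave -1.39 to -1.36 for MT-1, 0.46 to 0.58 for MT-2 and -2.14 to 0.25 for MT1B, so B10201 alone sets the sign of the MT1B mean. The difference of MT1B between the lines was 2.39, or 2.40 with centred arrays and 2.47 with quantile normalization. The other settings that measured MT1B could not change this difference. Its 1 probe set has no suffix, was above the floor on all arrays and lies outside the displaced stretches. At a floor at the 75th percentile MT1B had no value. Moving or leaving out the displaced values changed no member.

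In both lines 1394 probe sets passed 2-fold in the same direction, 619 higher and 775 lower. With centred arrays 465 were higher and 1055 lower. The count was 5997 with a floor at the 25th percentile, 438 at the 75th and 10994 without a floor, and 2635 to 2823 when 1 line was left out. limma called 128 probe sets without a floor (91 higher, 37 lower) and 52 with robust moderation (43 higher, 9 lower), against 0 in the other settings. No paired analysis was possible because the control has 1 array and the numbers of the lines only name them. Without detection calls, low signals such as MT1B in B10201 are judged only by the floor.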
